A study of Mus musculus with 4 samples.

Results

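The nuclear genes of the respiratory chain and the ATP synthase were followed through serum transfer arthritis in mouse synovium, the tissue that lines the joint. They were taken by symbol from 22180 genes measured through a probe set with exactly 1 gene symbol, using the prefixes of the subunit families (Ndufa, Ndufb, Ndufc, Ndufs, Ndufv, Sdh, Uqcr, Cox4 to Cox8 and Atp5) and leaving out the Ndufaf assembly factors. This gave 85 genes. Of these, 34 belonged by symbol to complex I, 4 to complex II, 7 to complex III, 16 to complex IV and 17 to the ATP synthase. Another 5 caught by the prefixes encode assembly factors or related proteins (Sdhaf1, Sdhaf2, Sdhaf3, Sdhaf4 and Cox7a2l) and 2 are pseudogenes (Atp5c1-ps and Uqcrh-ps1).

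Complexes I and II pass electrons from fuel to coenzyme Q, complex III hands them to cytochrome c, complex IV (cytochrome c oxidase) gives them to oxygen, and the ATP synthase makes ATP from the proton gradient built along the way. Most subunits come from a single gene used in nearly every cell. Among the exceptions is complex IV, where several small subunits have a form made in heart and skeletal muscle and a second form made elsewhere. The muscle forms Cox7a1 and Cox8b are also made in brown fat.

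The arrays were Affymetrix MoGene 2.0 ST, 1 for each pool of mice. There were 2 arthritic pools of 10 mice each, labelled day 10 and peak inflammation, and 2 nonarthritic pools of 3 mice each, labelled day 0. All mice were C57BL/6J males aged 12 weeks, and the tissue came from the region of the ankle (tibiotalar) joint. Arthritic mice received 150 microlitres of arthritogenic serum into the peritoneum on day 0, day 2 and day 7, while nonarthritic mice received saline instead, per the labels' protocols. The labels list K/BxN as serum donor strain on each of the 4 pools, which for the nonarthritic pools conflicts with the saline. Nor is it clear how their day 0 label goes with saline in place of injections on day 2 and day 7. Day, pool size and treatment differ together between the groups and cannot be told apart. In the bulk tissue, fewer cells of a type and less RNA per cell cannot be told apart either.

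Levels are given as log2 signal after RMA (robust multi-array average), and a log2 fold change is the arthritic mean minus the nonarthritic mean. The words rose and fell are kept for genes whose limma p was under 0.05 after Benjamini-Hochberg adjustment over all 22180 genes. The synovial fibroblast markers were well above the dim end of the arrays, with a median log2 signal of 10.94 and 10.65 in arthritic pools 1 and 2 and 10.55 and 10.37 in nonarthritic pools 1 and 2. Of 12 such markers, 4 rose and 3 fell. Genes of the fast skeletal muscle list were also present, at medians of 8.66 and 8.40 in the arthritic pools, against 11.25 and 11.71 in the nonarthritic pools. All 10 neutrophil markers rose (median log2 fold change 3.09), and of 10 macrophage markers 3 rose and 4 fell. Of all genes, 8.72% rose and 6.62% fell. With 1 pool left out, a group holds 1 array, and far fewer of all genes were called. In each of those runs fewer macrophage and fibroblast markers rose or fell. Neutrophil markers still rose in each, though not always all 10. Olfactory receptor genes, which serve as a guide to background, had a 90th percentile of 6.31 to 6.90 on the 4 arrays.

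Most genes of the chain changed little, as did most genes on the arrays, and 3 muscle forms of complex IV fell steeply. With its sign set aside, the log2 fold change had a median of 0.215 over the 85 genes and 0.24 over all genes. Of the 85 genes, 3 rose and 5 fell, which is 9.41%, against 15.3% of all genes called, 8.72% higher and 6.62% lower. The median log2 fold change was 0.02 over the 85 genes and 0.005 over all genes. The 95% interval of the log2 fold change lay between -1 and 1, so within a 2-fold change, for 76 of the 85 genes (89.4%), against 80.3% of all genes. The 9 others were Cox6a2, Cox7a1, Cox8b, Cox7b, Ndufa2, Ndufb11, Sdhb, Atp5e and Atp5mpl. Left out in turn, arthritic pools 1 and 2 gave 3 and 0 called genes of the 85, and nonarthritic pools 1 and 2 gave 4 and 0. In the runs with none, limma's unadjusted p was under 0.05 for 14 genes without arthritic pool 2 (16.5%, against 20.3% of all genes) and for 9 without nonarthritic pool 2 (10.6%, against 18.8%). The groups of arrays did not overlap in 48 of the 85 genes, and 56.4% of all genes showed the same.

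**Figure D1:**
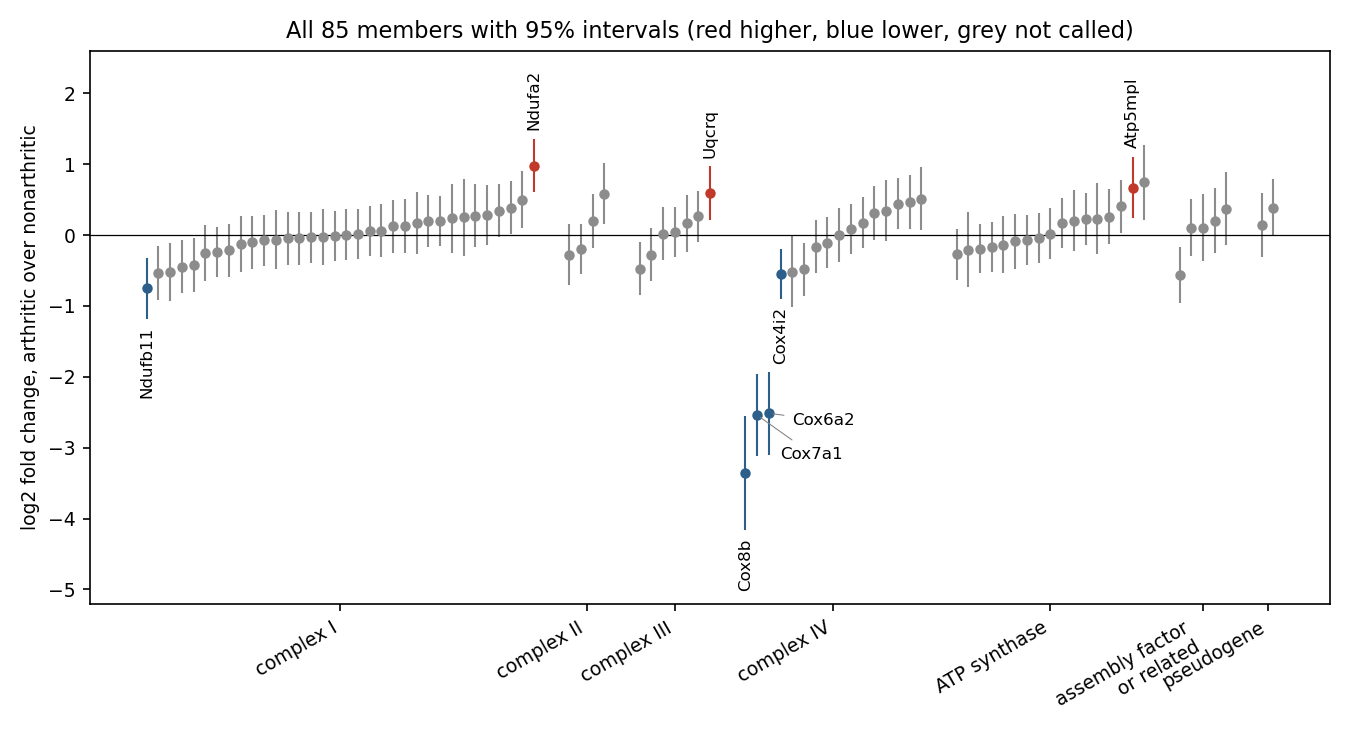
Log2 fold change (arthritic over nonarthritic, vertical axis) of all 85 genes, sorted within each complex, with bars for the 95% interval from limma; red points rose, blue points fell and grey points did not pass. Cox8b, Cox7a1 and Cox6a2 stand apart at -3.36, -2.54 and -2.52, while the other 82 genes lie between -0.75 and 0.98.

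The 3 muscle forms were set against the common forms of the same subunits. Cox6a2, the heart and muscle form of subunit 6a, read 8.66 and 8.09 in arthritic pools 1 and 2, against 10.60 and 11.18 in nonarthritic pools 1 and 2. Its common partner Cox6a1 read 13.22 and 13.09 in the arthritic pools, against 13.02 and 12.94 in the nonarthritic pools. The muscle form was low in both arthritic pools with no overlap, and the common form was slightly higher in both. Cox6a2 fell 5.72-fold (log2 fold change -2.52 ± 0.25 SE, limma adjusted p = 0.000705), whereas Cox6a1 had a log2 fold change of 0.18 ± 0.16, with a 95% interval of -0.19 to 0.54 (limma adjusted p = 0.529).

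Cox7a1, the muscle form of subunit 7a, read 8.26 and 7.59 in the arthritic pools, against 10.24 and 10.69 in the nonarthritic pools. The common form Cox7a2 read 10.96 and 10.94 in the arthritic pools, against 10.61 and 10.36 in the nonarthritic pools. Again the muscle form was the lower one in both arthritic pools. It fell 5.82-fold (-2.54 ± 0.25 SE, limma adjusted p = 0.000677). Cox7a2 had a log2 fold change of 0.47 ± 0.17 (95% interval 0.08 to 0.85) and did not pass over all genes (limma adjusted p = 0.103).

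Cox8b, the muscle form of subunit 8, read 7.68 and 6.56 in the arthritic pools, against 10.20 and 10.76 in the nonarthritic pools. It showed the steepest fall of the 85 genes, 10.3-fold (-3.36 ± 0.35 SE, limma adjusted p = 0.000783), and stood 31st from the bottom of all 22180 genes. The arthritic pools were more than 2-fold apart, and pool 2, at 6.56, lay close to the olfactory receptor 90th percentile of that array (6.49). The common form Cox8a read 12.48 and 12.39 in the arthritic pools, against 12.39 and 12.31 in the nonarthritic pools. Its log2 fold change was 0.09 ± 0.16, with a 95% interval of -0.27 to 0.44 (limma adjusted p = 0.782).

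**Figure D2:**
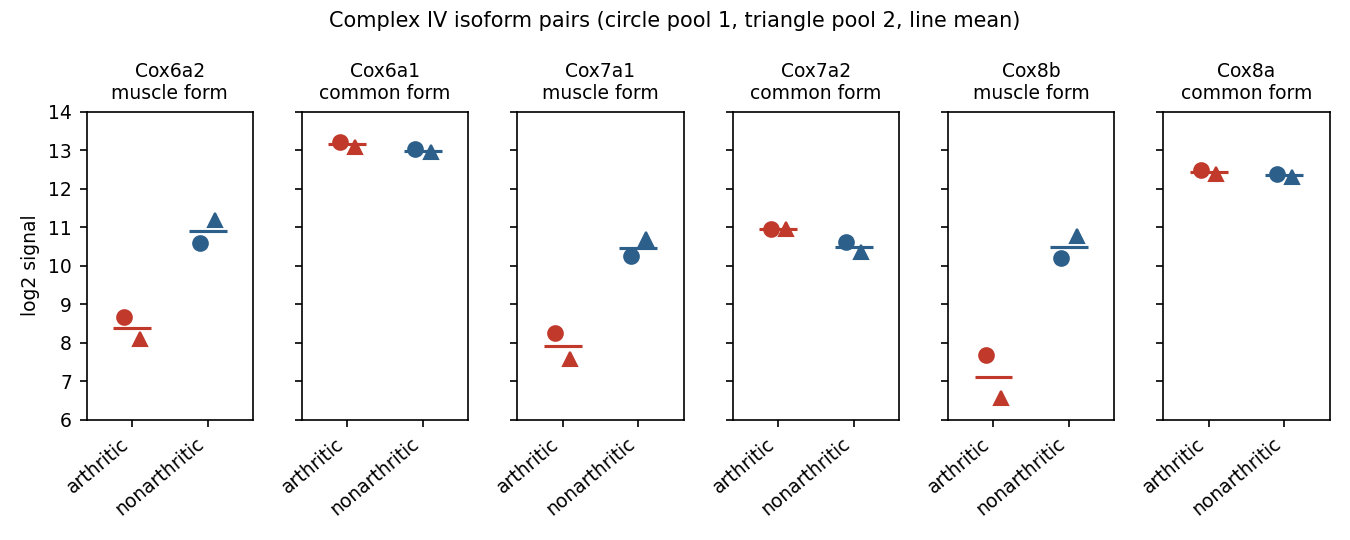
Log2 signal (vertical axis) of the muscle and common forms of 3 complex IV subunits in arthritic (red, left) and nonarthritic (blue, right) pools; circles are pool 1, triangles pool 2 and lines the mean of 2 pools. The muscle forms have log2 fold changes of -2.52, -2.54 and -3.36, while each common form differs by 0.47 or less.

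The change of the muscle form relative to its partner, taken array by array, was -2.69 for Cox6a2 against Cox6a1, with a range of -3.24 to -2.14 over the 4 pairings of an arthritic with a nonarthritic array. For Cox7a1 against Cox7a2 it was -3.01 (range -3.68 to -2.33), and for Cox8b against Cox8a it was -3.45 (range -4.28 to -2.61). With 2 arrays against 2, the exact 2-sided permutation test gives p = 0.333 for each of the 3, the smallest value it can reach. Without arthritic pool 2 the log2 fold changes were -2.23 for Cox6a2, -2.21 for Cox7a1 and -2.80 for Cox8b, with limma adjusted p-values of 0.0692, 0.0594 and 0.0552. Without nonarthritic pool 2 they were -2.23, -2.32 and -3.08, with limma adjusted p-values of 0.0554, 0.0615 and 0.076. The calls ended in both cases, in which the share of all genes called was 0.685% and 1.59%. With either of the other pools left out, all 3 falls were called.

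Genes of a fast skeletal muscle list, called fast fibre genes here, moved with these 3 genes. Not all of the listed genes are limited to fast fibres, so the list cannot compare fibre types. All 20 genes of the list fell, with a median log2 fold change of -2.99. The range was -4.37 (Trdn, a protein of the calcium release site) to -1.52 (the myosin Myh2), and each of the 3 muscle forms lay inside it. Trdn and Myh2 read under the olfactory receptor 90th percentile on arthritic pool 2. The muscle creatine kinase Ckm read 9.01 and 8.72 in the arthritic pools, against 11.55 and 11.85 in the nonarthritic pools. Summed on the linear scale, the 20 signals came to 9477 and 7075 in the arthritic pools, against 58743 and 76951 in the nonarthritic pools. The pools also kept 1 order. Arthritic pool 1 was above arthritic pool 2 in 19 of the 20 fast fibre genes and in all 3 muscle forms. Nonarthritic pool 2 was above nonarthritic pool 1 in 20 of 20 and 3 of 3. Among the 85 genes of the chain the same orders held for 42 and 39. Each order rests on 2 arrays, so the genes are not replicates of it. Of 9 slow fibre genes 1 fell (11.1% called, against 15.3% of all genes). It was Myoz2 (-1.45), which read under the olfactory receptor 90th percentile of both arthritic arrays. The summed linear signal of the 9 was 5256 and 5012 in the arthritic pools, against 4661 and 4662 in the nonarthritic pools, and most of it came from Atp2a2, a calcium pump also made outside muscle (4211 and 3902, against 3468 and 3214). Without Atp2a2 the sum was 1045 and 1110 in the arthritic pools, against 1192 and 1448 in the nonarthritic pools, and 7 of the 9 log2 fold changes were negative. The slow myosin Myh7 of that list had a log2 fold change of -0.24, and with 1 pool left out Myoz2 passed only when that was nonarthritic pool 1. Without arthritic pool 2, 12 of the 20 fast fibre genes were still called, and without nonarthritic pool 2, 15 were. Whether the amount of muscle in the tissue had a part in the fall of the muscle forms was not tested.

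Fat genes moved as well. All 11 measured white fat markers of 12 listed fell (median -2.55), among them the lipid droplet gene Cidec (-3.40) and the hormone Adipoq (-2.55), which was under the olfactory receptor 90th percentile on arthritic pool 2. Their summed linear signal was 8586 and 5988 in the arthritic pools, against 31668 and 31559 in the nonarthritic pools. Of 7 brown fat markers, 1 fell, the coactivator Ppargc1a (-1.61), which muscle also makes; with 1 pool left out it passed only when that was arthritic pool 1. The share of the brown fat list called was 14.3%, against 15.3% of all genes, and all 7 log2 fold changes were negative (median -0.45). Of the 7, 4 (Ucp1, Cidea, Elovl3 and Zic1) stayed under 6.90, the highest olfactory receptor 90th percentile, on all arrays. Their fold changes say little. The summed linear signal of these 7 markers was 1044 and 816 in the arthritic pools, against 1403 and 1414 in the nonarthritic pools. The defining brown fat gene Ucp1 read 6.15 and 6.07 in the arthritic pools, against 6.25 and 6.31 in the nonarthritic pools, under the olfactory receptor 90th percentile of its own array on all 4. Without arthritic pool 2, 4 white fat markers were called, and without nonarthritic pool 2, 6 were. Whether the amount of fat had a part in the fall of Cox7a1 and Cox8b was not tested.

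The promoters of the pairs show how the forms differ in sequence. RefSeq promoter windows (build GRCm38.p6) were matched by gene ID to 69 of the 85 genes, in 74 windows. The 250 bases before the annotated gene start follow for 5 genes of the pairs, 5′ to 3′ on the gene's strand, with every CpG dinucleotide in capitals. They are shown because the CpG content differs between 2 of the muscle forms and the common forms. Cox6a2 has no window among those matched. Cox7a1 lies at chr7:30183921-30184170 (plus strand), Cox8b at chr7:140900447-140900696 (minus), Cox7a2 at chr9:79759854-79760103 (minus), Cox8a at chr19:7217617-7217866 (minus) and Cox6a1 at chr5:115348959-115349208 (minus).
Cox7a1: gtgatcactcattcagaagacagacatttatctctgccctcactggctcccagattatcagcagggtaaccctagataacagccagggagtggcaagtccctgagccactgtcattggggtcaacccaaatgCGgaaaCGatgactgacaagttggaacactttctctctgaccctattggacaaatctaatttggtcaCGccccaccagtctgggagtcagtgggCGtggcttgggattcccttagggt
Cox7a2: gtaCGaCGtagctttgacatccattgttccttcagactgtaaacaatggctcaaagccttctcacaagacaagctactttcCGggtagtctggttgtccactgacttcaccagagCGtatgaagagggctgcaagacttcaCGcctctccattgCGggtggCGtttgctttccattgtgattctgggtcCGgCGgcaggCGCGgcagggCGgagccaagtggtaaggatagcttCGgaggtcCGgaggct
Cox8b: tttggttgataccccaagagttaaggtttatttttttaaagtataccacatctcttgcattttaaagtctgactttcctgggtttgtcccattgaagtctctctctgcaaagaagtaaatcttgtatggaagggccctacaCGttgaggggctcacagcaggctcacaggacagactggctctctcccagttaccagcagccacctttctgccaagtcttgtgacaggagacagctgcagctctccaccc
Cox8a: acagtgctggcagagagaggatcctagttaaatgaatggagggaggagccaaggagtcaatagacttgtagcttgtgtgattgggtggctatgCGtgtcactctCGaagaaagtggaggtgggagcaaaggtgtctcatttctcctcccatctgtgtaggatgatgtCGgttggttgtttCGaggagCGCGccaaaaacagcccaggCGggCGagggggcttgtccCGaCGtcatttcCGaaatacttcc
Cox6a1: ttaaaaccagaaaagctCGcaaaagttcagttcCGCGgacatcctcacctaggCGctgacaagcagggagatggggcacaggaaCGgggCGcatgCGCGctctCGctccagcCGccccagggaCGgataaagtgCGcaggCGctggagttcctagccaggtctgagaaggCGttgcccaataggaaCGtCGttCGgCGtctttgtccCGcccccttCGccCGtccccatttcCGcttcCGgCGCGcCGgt

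The Cox8b window holds 1 CpG and the Cox7a1 window 4, and together with Ndufc2, a complex I subunit that also has 4, these are the lowest counts of the 74 windows. Cox8a holds 11, Cox7a2 14 and Cox6a1 26. The median was 14 in the 74 windows of the chain and 6 in all 32851 windows of the table. Ndufc2 had a log2 fold change of 0.13.

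**Figure D3:**
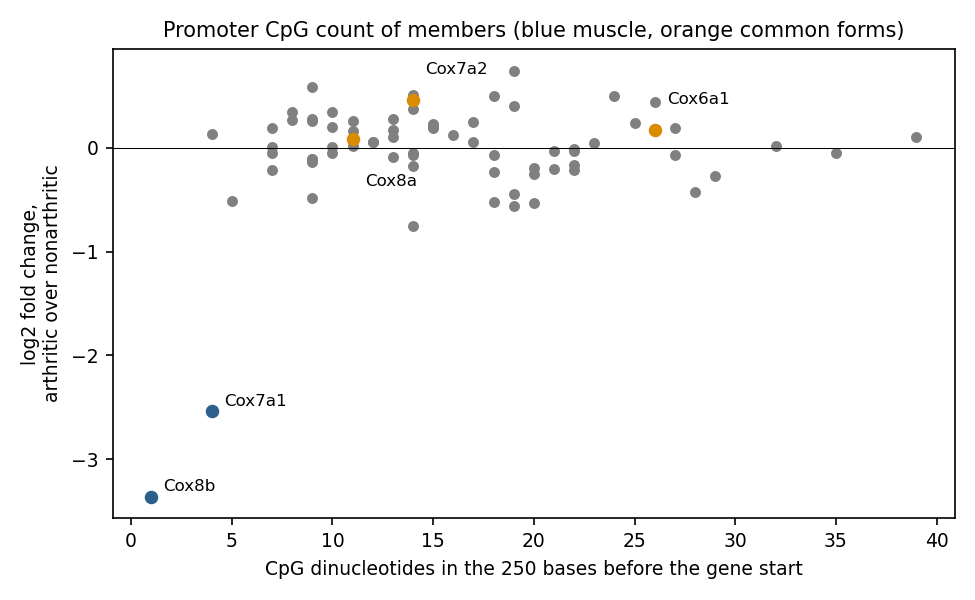
CpG dinucleotides in the 250 bases before the gene start (horizontal axis) against log2 fold change, arthritic over nonarthritic (vertical axis), for 74 promoter windows of 69 genes. The muscle forms Cox8b and Cox7a1 (blue) sit at 1 and 4 CpG and below -2, while the common forms (orange) and the other genes (grey) lie between -0.75 and 0.75.

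A few known motifs were searched in the same 250 bases. The binding motif of NRF1, a factor of respiratory chain genes, searched on both strands as a run of 10 bases (GCGC, then AT, then GCGC), was found in 4 of the 74 windows (5.41%) and in 0.782% of all windows. The 4 were those of Atp5g2, Atp5k, Cox6a1 and Ndufa11. The ETS core CCGGAAG, the kind of site bound by GABP, was found on either strand in 14 windows (18.9%), against 6.91% of all windows. Both motifs contain CpG, and windows of the chain hold more CpG than all windows (median 14 against 6). Shares at matched base content were not computed for any motif. In Cox6a1 both are present, the NRF1 motif at bases 89 to 98 and the ETS core, on the opposite strand, at bases 235 to 241, counted from the 5′ end of the printed sequence. The E-box CAGCTG, which myogenic factors can bind, was found in 6 windows (8.11%), against 13.0% of all windows, and stands at bases 232 to 237 of Cox8b. The MEF2-type motif, searched on both strands as CTA and TAG with any 4 bases between them, was found in 1 window (1.35%), against 3.20%, and TATAAA on the gene's strand in 2 (2.70%), against 7.59%. None of these letters is in the printed windows of Cox7a1, Cox7a2 and Cox8a. The motifs did not overlap each other in the printed windows.

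Other complex IV subunits have a second form made in particular tissues. Cox4i2, the form of subunit 4 known from lung and from cells short of oxygen, read 8.44 and 8.51 in the arthritic pools, against 9.01 and 9.03 in the nonarthritic pools. It fell 1.46-fold (-0.55 ± 0.15 SE, limma adjusted p = 0.0496), just inside the threshold. The common form Cox4i1 read 10.87 and 10.69 in the arthritic pools, against 10.56 and 10.38 in the nonarthritic pools, and did not pass (0.31 ± 0.17). The change of Cox4i2 relative to Cox4i1 was -0.86 (range -1.08 to -0.63; exact permutation p = 0.333, the smallest possible with 2 against 2).

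The testis forms did not pass. Cox6b2 had a log2 fold change of 0.35 ± 0.18 and its common partner Cox6b1 one of 0.51 ± 0.19, a change of their difference of -0.17 (exact permutation p = 0.667, n = 2 and 2). Cox7b2 read 4.18 to 4.37 on all 4 arrays and Cox8c had a log2 fold change of 0.00, both at the level of background genes. Cox7b, the common partner of Cox7b2, read 11.42 and 12.02 in the arthritic pools, against 12.20 and 12.27 in the nonarthritic pools (-0.52 ± 0.21, limma adjusted p = 0.157). The change of Cox7b2 relative to Cox7b was 0.41 (range 0.12 to 0.69; exact permutation p = 0.333, the smallest possible), with Cox7b2 at background on all 4 arrays.

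Of the 16 complex IV genes, 4 fell and 0 rose, a share of 25% against 15.3% of all genes. Without the muscle forms, 1 of 13 fell, Cox4i2 (7.69% called, against 15.3% of all genes), and the median log2 fold change was 0.09. The groups of arrays did not overlap in 11 of these 13 genes, against 45 of the 82 genes of the chain without the muscle forms and 56.4% of all genes, a difference that was not tested. Cox5a and Cox5b, both common to all tissues, had log2 fold changes of 0.44 ± 0.16 (limma adjusted p = 0.102) and -0.17 ± 0.16. Ndufa4, a complex IV subunit that keeps a complex I name, was counted by symbol with complex I and not among these 16 genes. It read 10.11 and 10.27 in the arthritic pools, against 9.91 and 9.78 in the nonarthritic pools (0.35 ± 0.16, limma adjusted p = 0.204). Its paralogue Ndufa4l2, known as a hypoxia target and counted likewise, had a log2 fold change of 0.39 ± 0.16 (limma adjusted p = 0.162), so the pair differed by 0.04.

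Complex I, the NADH dehydrogenase, is the largest of the complexes. Of the 34 genes assigned to it by symbol, Ndufa4 and Ndufa4l2 included, 1 rose and 1 fell (5.88% called, against 15.3% of all genes). Their median log2 fold change was -0.005. Ndufa2, an accessory subunit of the arm that binds NADH, read 9.85 and 9.70 in the arthritic pools, against 8.88 and 8.71 in the nonarthritic pools. Both arthritic pools were higher, with little spread within a group, and the gene rose 1.97-fold (0.98 ± 0.16 SE, limma adjusted p = 0.00615). Ndufb11, an X-linked accessory subunit of the membrane arm, read 8.17 and 7.75 in the arthritic pools, against 8.73 and 8.69 in the nonarthritic pools, and fell 1.68-fold (-0.75 ± 0.19 SE, limma adjusted p = 0.0308).

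Of the measured subunits of the catalytic core of complex I described here, none passed. Ndufs1, which carries iron-sulphur clusters, read 9.59 and 9.71 in the arthritic pools, against 9.76 and 9.69 in the nonarthritic pools. Ndufv1, which binds NADH, read 10.90 and 10.83 in the arthritic pools, against 10.85 and 10.77 in the nonarthritic pools. The groups overlapped in both genes, and the 95% intervals were -0.44 to 0.29 for Ndufs1 and -0.30 to 0.41 for Ndufv1. Ndufs7, the brightest complex I probe set, which carries the last iron-sulphur cluster before coenzyme Q, read 12.15 and 11.89 in the arthritic pools, against 12.55 and 12.56 in the nonarthritic pools. It had a log2 fold change of -0.54 ± 0.17 (95% interval -0.92 to -0.15) and did not pass (limma adjusted p = 0.0678). Ndufs7 did pass with dim genes left out (limma adjusted p = 0.0491), quantile normalization again (0.0392) or a trended prior (0.0158). In those settings 22.2%, 16.8% and 16.7% of all genes were called, against 15.3% in the main fit. Ndufv2, another iron-sulphur protein, read 11.33 and 11.53 in the arthritic pools, against 11.78 and 11.93 in the nonarthritic pools, without overlap (-0.43, 95% interval -0.81 to -0.04, limma adjusted p = 0.13). Ndufs3 (-0.03) and Ndufs8 (0.28) had overlapping groups. At the ends of the family, the accessory subunits Ndufs5 (-0.53), Ndufb3 (-0.45) and Ndufa7 (0.50) did not pass either.

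Complex II, succinate dehydrogenase, also works in the citric acid cycle. Of its 4 subunits, 0 were called by limma (15.3% of all genes were), and 1, Sdhb, had an unadjusted p under 0.05 (25%, against 29.1% of all genes). The flavoprotein Sdha read 11.36 and 11.41 in the arthritic pools, against 11.59 and 11.58 in the nonarthritic pools (-0.20 ± 0.15). The iron-sulphur subunit Sdhb read 9.12 and 9.44 in the arthritic pools, against 8.85 and 8.54 in the nonarthritic pools (0.59 ± 0.19, limma adjusted p = 0.0776). The catalytic partners therefore lay on opposite sides of 0, and neither passed. The membrane anchors Sdhc and Sdhd had log2 fold changes of -0.28 ± 0.19 and 0.20 ± 0.17. Of the assembly factors for this complex, Sdhaf3 was lowest (-0.57 ± 0.17, limma adjusted p = 0.0645) and Sdhaf4 highest (0.37 ± 0.22), with Sdhaf1 at 0.21 and Sdhaf2 at 0.11. Cox7a2l, which takes part in joining complexes into supercomplexes, had a log2 fold change of 0.11 ± 0.18.

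Complex III had 1 rising gene among 7 (14.3%, against 15.3% of all genes). Uqcrq, a small accessory subunit, read 9.06 and 9.22 in the arthritic pools, against 8.65 and 8.45 in the nonarthritic pools, and rose 1.51-fold (0.59 ± 0.17 SE, limma adjusted p = 0.0487). The brightest probe set was that of Uqcrb, a subunit near the quinone site, which read 11.84 and 11.76 in the arthritic pools, against 12.18 and 12.37 in the nonarthritic pools (-0.48 ± 0.16, limma adjusted p = 0.0898). The core proteins Uqcrc1 and Uqcrc2 had log2 fold changes of 0.27 ± 0.16 and -0.28 ± 0.16. The Rieske iron-sulphur protein Uqcrfs1 was at 0.05 ± 0.15 and the small subunit Uqcr11 at 0.02 ± 0.16, with overlapping groups in both.

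Of the 17 ATP synthase genes, 1 rose (5.88%, against 15.3% of all genes), and the median log2 fold change was 0.02. The catalytic beta subunit Atp5b, the brightest of the family, read 12.97 on both arthritic arrays, against 13.11 and 13.17 in the nonarthritic pools (-0.17 ± 0.15). The alpha subunit Atp5a1 read 12.11 and 12.06 in the arthritic pools, against 11.89 and 11.95 in the nonarthritic pools (0.17 ± 0.15). Both 95% intervals stayed inside a 2-fold change, at -0.52 to 0.18 for Atp5b and -0.19 to 0.52 for Atp5a1. Atp5mpl, a small membrane subunit, read 8.96 and 9.27 in the arthritic pools, against 8.60 and 8.29 in the nonarthritic pools, and rose 1.59-fold (0.67 ± 0.19 SE, limma adjusted p = 0.0487).

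The epsilon subunit Atp5e had the highest log2 fold change of the ATP synthase, 0.75 ± 0.23, without passing (limma adjusted p = 0.0666). It read 9.77 and 9.68 in the arthritic pools, against 9.32 and 8.64 in the nonarthritic pools, so the nonarthritic pools stood 0.68 apart, and its second probe set gave 0.33. The stalk and membrane subunits Atp5h (-0.27), Atp5l (-0.21) and Atp5pb (-0.19) were the lowest and did not pass. The pseudogenes Atp5c1-ps (0.39) and Uqcrh-ps1 (0.14) read 4.22 to 4.85 on the arrays. They and Atp5j2, Cox7b2 and Cox8c are the 5 genes that stayed under 6.90, the highest olfactory receptor 90th percentile, on all 4 arrays.

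The smaller calls were less firm than those of the muscle forms. Cox4i2, Ndufa2, Ndufb11, Uqcrq and Atp5mpl each lost the call whenever any 1 of the 4 pools was left out. Such runs leave 1 array in a group and called far fewer of all genes than the main fit. The direction of the 5 genes could not change, since their groups of arrays did not overlap. Over these runs Ndufa2 had log2 fold changes of 0.90 to 1.07, with limma adjusted p from 0.0517 to 0.106. Ndufb11 had -0.96 without arthritic pool 1 and -0.54 without arthritic pool 2, the ends of its range, with Cox4i2 at -0.58 to -0.51, Uqcrq at 0.49 to 0.69 and Atp5mpl at 0.52 to 0.83. Uqcrq and Atp5mpl also did not pass after median centring of the arrays (limma adjusted p = 0.0561 and 0.059) or another quantile normalization (0.0689 and 0.0751), and under a variance prior with trend Cox4i2 and Uqcrq did not (0.0551 and 0.0509).

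The rest of the mitochondrial gene programme was read from lists of pathway genes. Of 40 measured assembly factors of the complexes, 4 rose and 2 fell (median 0.15). That is 15% called, no larger a share than the 15.3% of all genes. Coa3, a complex IV assembly factor, rose by 0.98 ± 0.18, Bcs1l, which helps build complex III, by 0.77 ± 0.17, and Ndufaf1 and Cox20 fell by 0.87 and 0.90 on the log2 scale. Of 71 mitochondrial ribosome genes, 11 rose and 0 fell, with a median of 0.29. The share called was 15.5%, against 15.3% of all genes in either direction and 8.72% higher. With dim genes left out, median centring or quantile normalization again, 1 ribosome gene fell. Mrpl54 rose most (1.36 ± 0.27), followed by Mrpl36 (0.97 ± 0.18), and Mrpl46 (0.57) and Mrpl51 (0.61) rose least. With any 1 pool left out, few or no ribosome genes rose and no assembly factor was called. Such runs leave 1 array in a group and called far fewer of all genes than the main fit. These ribosomes make the subunits that mitochondrial DNA encodes, which were not analysed here.

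Among 18 citric acid cycle and pyruvate dehydrogenase genes, Idh2 rose (0.60) and Idh3a (-1.13) and Dld (-0.66) fell (median -0.16), 16.7% called against 15.3% of all genes. Idh3a encodes the catalytic subunit of the isocitrate dehydrogenase that makes NADH for complex I. Of 21 regulators of mitochondrial biogenesis, 2 rose and 2 fell, 19% called against 15.3% of all genes. Ppargc1a, the coactivator PGC-1 alpha, read 6.83 and 6.30 in the arthritic pools, against 8.13 and 8.21 in the nonarthritic pools (-1.61 ± 0.20 SE, limma adjusted p = 0.00187). Pprc1 (0.79) and the DNA polymerase Polg (0.64) rose. Perm1, a muscle partner of that pathway, passed as lower but read under the olfactory receptor 90th percentile of its own array on all 4, so no size is given for it. Ppargc1a was under that level on arthritic pool 2. Of these lists, the call of Ppargc1a held without arthritic pool 1 and those of Idh3a and Perm1 without nonarthritic pool 1, and no other call of the 2 lists held with a pool left out. The factors Nrf1 (0.24), Gabpa (-0.02) and Tfam (0.21) did not pass.

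Carriers and kinases around the chain included a muscle form that fell, with 14.3% of the list called against 15.3% of all genes. Of 14 genes, Ckmt2, the muscle form of mitochondrial creatine kinase, fell (log2 fold change -2.07 ± 0.17 SE, limma adjusted p = 0.000359) and the carnitine carrier Slc25a20 rose by 0.65. Ckmt2 read 6.26 and 6.36 in the arthritic pools, against 8.22 and 8.54 in the nonarthritic pools. Both arthritic readings were under the olfactory receptor 90th percentile of their arrays, so the size of the fall is not well measured. The adenine nucleotide carriers did not pass, with the heart and muscle form Slc25a4 at -0.45 ± 0.17 and the common form Slc25a5 at 0.42 ± 0.16. The next 3 lists also had smaller shares called than the 15.3% of all genes. Of 17 genes of inner membrane folding and import, Chchd10, a protein abundant in muscle, fell by 1.29 and 0 rose. Of 10 coenzyme Q synthesis genes, Coq8a fell (-0.89), and of 8 carriers and subunits outside the prefixes, Coq10a fell (-0.80). The call of Ckmt2 ended without arthritic pool 2 and that of Chchd10 without arthritic pool 2 or nonarthritic pool 2. Coq8a kept its call without nonarthritic pool 1 alone, and Slc25a20 and Coq10a in none of these 4 runs. The complex III subunit Cyc1 (-0.20) and cytochrome c, Cycs (-0.07), did not pass.

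**Figure D4:**
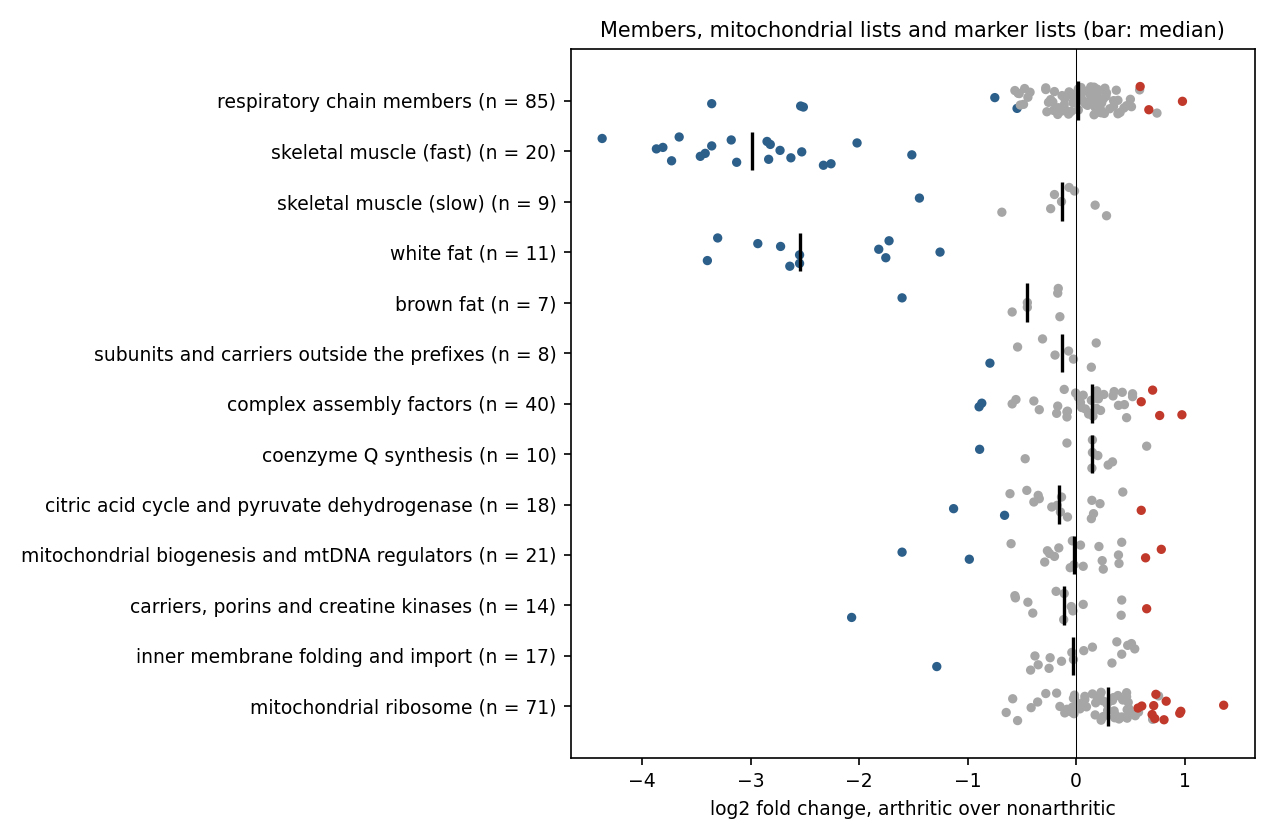
Log2 fold change, arthritic over nonarthritic (horizontal axis), of each gene in the respiratory chain family, the muscle and fat marker lists and the mitochondrial lists; red points rose, blue points fell, grey points did not pass, and black bars are list medians. The fast muscle and white fat lists have medians of -2.99 and -2.55, while the medians of the chain and of the other mitochondrial lists lie between -0.16 and 0.29.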

How the data were processed

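Total RNA of 4 pools (500 ng each) was hybridised to 1 Affymetrix array per pool. The deposited values are log2 signals, 1 for each of 41345 probe sets, made by the authors with RMA in Affymetrix software (Power Tools and Expression Console), per the submitters' processing notes. Their settings were not stated. That the scale is log2 was inferred from the range of the values. No detection calls or array dates were used, and the number of arrays limits the precision.

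Genes were named through the platform's probe table. Probe sets with 1 symbol (23521) were kept, and the one with the highest mean over the 4 arrays stood for its gene; 10 probe sets with a family symbol among several were not used. Genes were tested with limma 3.58.1 in R 4.3.3 (lmFit and eBayes, no block, 2 residual and 5.98 prior degrees of freedom). The test was tried on simulated data. P-values measure the spread between pools, called biological replicates in the series' design.

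Named genes are the isoform pairs, core subunits, genes the prefixes catch besides subunits, the 4 lowest, 2 highest and brightest of each complex, every call of at least 2-fold and, of other lists, the 2 highest and 2 lowest that passed. Cox8c, Atp5j2, Ndufc2, Ndufv2, Ndufs3, Ndufs8, Atp2a2, the genes with an NRF1 motif, and list genes that did not pass were named after their values were seen. Members and lists were chosen with earlier results of these data known. Genes of families with near-identical copies or pseudogenes can share probes, so their values are uncertain. Alternatives were probe set averaging, a filter at a mean log2 signal of 6, median centring, quantile normalization again, a trended variance prior, the pool number as a block and leaving out each pool.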

Additional observations from a re-analysis of the deposited data

How the results depend on the processing

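The falls of Cox6a2, Cox7a1 and Cox8b were called in 8 of 10 alternatives each. The change of each muscle form relative to its partner was negative in all alternatives run, but most of these could not turn its sign. Median centring cancels within an array, these genes have 1 probe set each, and the filter leaves values as they are. Every pairing of arrays was already negative, so leaving out a pool could not turn it either. With 1 pool left out the change was -3.02 to -2.36 for Cox6a2, -3.36 to -2.66 for Cox7a1 and -3.96 to -2.93 for Cox8b. Of the 85 genes, 3 rose and 5 fell. After median centring 1 rose and after another quantile normalization 1 rose (5 and 7 fell), with 0 rising in complex III and 0 in the ATP synthase under both. With the replicate block (pool number in the fit) 1 rose and 3 fell, with 0 falling in complex I, 0 rising in complex III and 0 rising in the ATP synthase. The pools share a number but no stated litter or day, and same-numbered pools deviated together with a correlation of 0.176 across genes; the block moved the calls of all genes to 2243, against 3402 without it. The dim gene filter and the trended prior each gave 2 falling genes in complex I and 2 rising in the ATP synthase, and quantile normalization again gave 2 falling in complex I. The share of all genes called was 15.3% in the main fit. It was 22.2% with the filter, 16.7% with the trended prior and 16.8% after quantile normalization again. With the filter, 11 of 81 genes of the chain were called. The trended prior gave 0 rising and 1 falling in complex III. The dim gene filter and quantile normalization again each gave 1 falling assembly factor, Sdhaf3. With 1 pool left out, 0 to 1 of the 85 rose and 0 to 3 fell; in complex I 0 rose and 0 fell, in complex III 0 rose, in complex IV 0 to 3 fell and in the ATP synthase 0 to 1 rose. These runs hold fewer arrays, and the calls of all genes were 152 to 1221. Without the 3 muscle forms, an alternative added after the data were seen, 3 of 82 rose and 2 fell (6.1% called, against 15.3% of all genes). The median log2 fold change of the 85 genes was 0.02 and ran from 0.015 to 0.055 with 1 pool left out. Of the named genes of the chain, 12 of 477 values under alternatives changed sign, each in a gene called in neither fit. With the replicate block 5 mitochondrial ribosome genes rose, against 11 without it. A signal near background limits what the 5 dimmest genes of the chain, arthritic Cox8b and the dimmer probe sets of Cox5b and Cox7b can show. The same holds for the listed genes Perm1, Ckmt2, Myoz2, Ppargc1a, Trdn, Myh2, Adipoq, Myh7, Ucp1, Cidea, Elovl3 and Zic1.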

Other observations

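The array reads 10 of the 85 genes through 2 probe sets each. The log2 fold changes of both had the same sign in 9 of these genes. The exception was Ndufa12, an accessory subunit of complex I, with -0.22 for the brighter probe set and 0.10 for the other. In some genes the probe sets differed in brightness with like fold changes: the 2 probe sets of Cox7b had mean log2 signals of 11.98 and 6.57 but log2 fold changes of -0.52 and -0.46. For Cox5b the mean signals were 11.47 and 6.33, with log2 fold changes of -0.17 and -0.21. The dimmer Cox5b probe set read 5.91 and 6.53 in arthritic pools 1 and 2, against 6.42 and 6.44 in the nonarthritic pools. These readings lie around the olfactory receptor 90th percentiles (6.31 to 6.90), so its likeness to the brighter probe set carries little weight. The dimmer Cox7b probe set, at 6.32 to 6.82, was near them too. For Atp5g2, which encodes a copy of the membrane ring subunit of the ATP synthase, the 2 probe sets gave 0.41 and 0.44. For Ndufa8 they gave 0.25 and 0.56, and both read higher on arthritic pool 1 (11.11 and 9.30) than on arthritic pool 2 (10.40 and 8.48).

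The genes of the membrane ring subunit, Atp5g1, Atp5g2 and Atp5g3, encode the same mature protein. Their log2 fold changes were 0.23 ± 0.22, 0.41 ± 0.16 and 0.21 ± 0.19 (SE), and none passed (limma adjusted p = 0.55, 0.139 and 0.537). The groups overlapped for Atp5g1, which read 6.84 and 7.45 in the arthritic pools, against 6.92 and 6.91 in the nonarthritic pools, and for Atp5g3. They did not overlap for Atp5g2, which read 12.34 and 12.14 in the arthritic pools, against 11.80 and 11.87 in the nonarthritic pools. These genes were chosen after their values were seen.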
